A study of Mus musculus with 9 samples.

Results

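Cells arrested at successive stages of early B cell development were compared: cultured mouse cells that lack Rag2 (RAG2ko), which the labels call committed to the B lineage, and cultured cells that lack the transcription factor Pax5 (Pax5ko), which the labels call specified to that lineage. The comparison rests on 6 of the 9 arrays of the series, 3 labelled RAG2ko and 3 labelled Pax5ko, chosen by their titles; the 3 arrays of EBFko cells entered the normalization, the filter on dim probe sets and the estimate of the spread, but not the difference itself. RAG2ko cells were grown with 10 ng/ml recombinant mouse IL-7 alone. Pax5ko cells were grown with 10 ng/ml recombinant mouse IL-7 and 10 ng/ml recombinant human Flt3 ligand. EBFko cells were also grown with IL-7 and Flt3 ligand, at 10 ng/ml each. Genotype and medium therefore cannot be told apart in any difference between RAG2ko and Pax5ko. All 6 samples are untreated otherwise. The labels name neither the structure of the deleted alleles nor the number of cultures or animals behind the replicates, so the spread between arrays may be technical.

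As background, B cell development runs through pro-B cells, which join the gene segments of the immunoglobulin heavy chain, to pre-B cells, which carry a pre-B cell receptor made of that chain, the surrogate light chain proteins VpreB and lambda 5, and the signalling chains CD79a and CD79b. The RAG1 and RAG2 proteins cut the DNA for this joining, so cells without RAG2 stop as pro-B cells. Pax5 is the factor that holds cells to the B lineage: it activates B cell genes and represses genes of other lineages, and pro-B cells without it keep the ability to form other blood cells.

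Values are log2 array signals after quantile normalization. A difference is RAG2ko minus Pax5ko on that scale, where 1 is a 2-fold and 4 a 16-fold difference in signal, given with its standard error (SE) from the limma fit and a p adjusted over all 27769 probe sets tested. A probe set rose or fell where that adjusted p was below 0.05. Signals near or below 6 are dim, and the size of a difference that reaches into them is uncertain, so a difference that moved by more than 1 when signals below 64 (log2 of 6) were raised to 64 is also given after that step. A gene is represented by its probe set of highest mean, and levels of different probe sets are not compared. In these bulk samples, fewer cells of a type and less RNA per cell cannot be told apart.

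Markers of pro-B cells were read as a check of the lines. The surrogate light chain gene Vpreb1 read 14.55, 14.53 and 14.53 in RAG2ko, against 14.21, 14.21 and 13.96 in Pax5ko. Both lines were bright for it, with a difference of 0.41 ± 0.87 (SE, adjusted p = 0.772), and all RAG2ko arrays were above all Pax5ko arrays. The SE takes in the scatter of the EBFko arrays, which read 2.83, 2.20 and 6.06, so it does not measure the spread within these lines. Without EBFko replicate 3 the adjusted p of the fit was 0.164. Igll1, Cd79a, Ebf1, Rag1, Dntt and Il7r were also above 6 on all arrays of both lines. Blnk was above 6 on all RAG2ko arrays and below 6 on all Pax5ko arrays, and so was Pax5, the gene targeted there. The targeted genes gave a mixed check. Whether their probe sets lie inside the deleted parts was not tested. Pax5 read 6.77, 7.21 and 7.33 in RAG2ko, against 5.62, 2.64 and 3.57 in Pax5ko, separate in the 2 lines but dim in Pax5ko, with a difference of 3.16 ± 1.0 (SE, adjusted p = 0.0599), or 1.10 with signals below 64 raised to 64. The difference as measured passed the threshold in the fit of the 6 arrays alone (adjusted p = 0.0458) and when EBFko replicate 1 or Pax5ko replicate 1 was left out (0.0269 at the lowest). Rag2 read 5.96, 5.60 and 9.10 in RAG2ko, against 7.86, 7.16 and 7.64 in Pax5ko. RAG2ko replicates 1 and 2 were below all Pax5ko arrays and the array labelled RAG2ko replicate 3 was above them, so Rag2 did not check the label of that array; the difference was -0.66 ± 0.87 (SE, adjusted p = 0.622), and -1.77 (adjusted p = 0.026) without it.

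The array labelled RAG2ko replicate 3 stood apart in other ways too. Its correlation over all tested probe sets was 0.909 and 0.914 with RAG2ko replicates 1 and 2, which had 0.942 between them, and 0.835 to 0.861 with the Pax5ko arrays, against 0.816 to 0.829 for replicates 1 and 2. The stromal genes, 24 tested markers of connective tissue cells such as collagens, had a mean log2 signal of 5.72, 6.46 and 9.42 in RAG2ko and 9.76, 8.51 and 10.48 in Pax5ko. Their summed signal was 2341, 3814 and 31182 in RAG2ko and 40754, 17724 and 65882 in Pax5ko. RAG2ko replicate 3 therefore lay nearer the Pax5ko arrays in these genes, and 1 of the 24 fell with all arrays and 19 without it. The part of stromal RNA in other results was not tested, and the counts of gene lists are given without this array where it changed them.

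Of 27769 probe sets tested, 3059 rose (11.0%) and 2705 fell (9.74%) in RAG2ko. As measured, the falls reached further: 349 fell and 127 rose at least 16-fold, and 1838 fell and 1503 rose at least 2-fold. Many differences reached into dim signal, as 975 falls had a RAG2ko mean below 6 and 531 rises had a Pax5ko mean below 6. These fold counts are without raising dim signals, so their sizes are uncertain. All but 6 of the called probe sets had arrays that did not overlap between the lines, as had 41.4% of all those tested. The balance of rises and falls depended on the scaling, with 53.1% of calls being rises here, 45% without quantile normalization and 39.7% with centring on the array medians. With 1 probe set for each of 9287 named genes, 1166 rose (12.6%) and 992 fell (10.7%), and the median difference was 0.06. These are the shares against which the gene groups below are read.

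**Figure D1:**
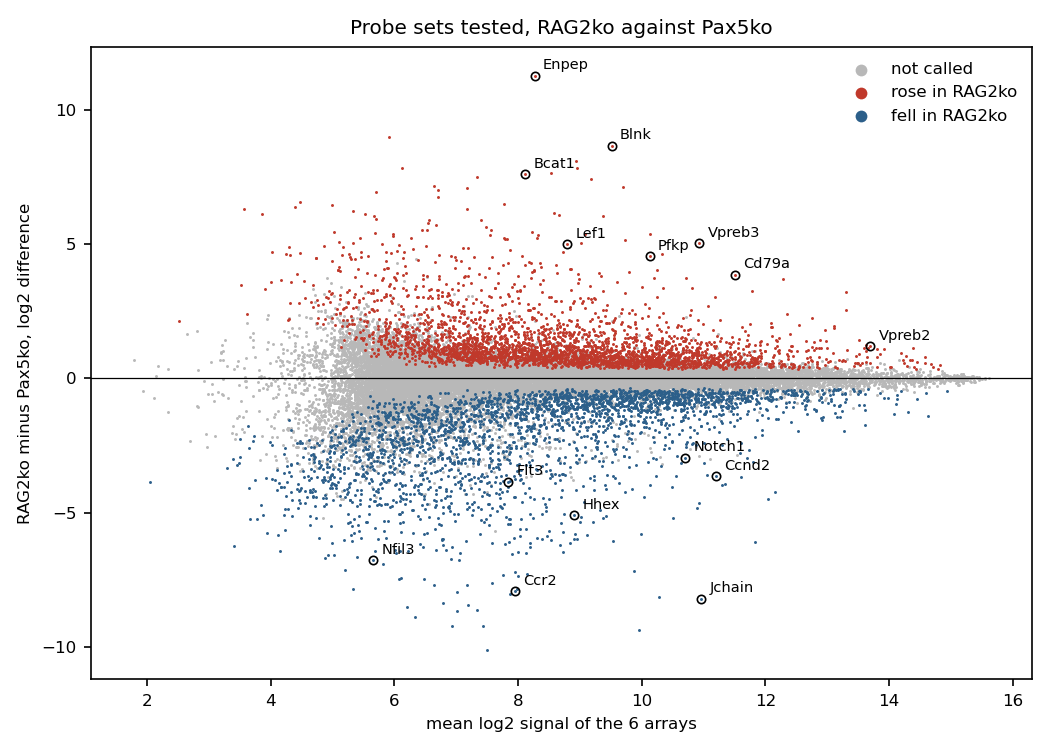
Difference (RAG2ko minus Pax5ko, log2) against the mean log2 signal of the 6 arrays for the 27769 tested probe sets, with rises, falls and probe sets that were not called in separate colours and named genes labelled. The points spread further down than up: 349 probe sets fell and 127 rose at least 16-fold, as measured and without raising dim signals.

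Most genes of the pre-B cell receptor chains were higher in RAG2ko. Of 7 tested genes of the receptor chains, 5 rose and none fell, with a median difference of 1.14, and the same counts held without RAG2ko replicate 3. Vpreb3, whose protein binds newly made heavy and light chains, read 13.20, 13.30 and 13.87 in RAG2ko, against 8.49, 8.31 and 8.44 in Pax5ko. All RAG2ko arrays were above all Pax5ko arrays, with a difference of 5.04 ± 0.21 (SE, adjusted p = 1.23e-05). Cd79a, a signalling chain of the receptor, read 13.31, 13.32 and 13.71 in RAG2ko, against 9.54, 9.45 and 9.76 in Pax5ko. The lines were again separate, by 3.86 ± 0.26 (SE, adjusted p = 9.11e-05). Smaller rises were those of Vpreb2 at 1.21 ± 0.13 (SE, adjusted p = 0.000773), the lambda 5 gene Igll1 at 1.09 ± 0.14 (SE, adjusted p = 0.00192) and the heavy chain gene Ighm at 1.14 ± 0.24 (SE, adjusted p = 0.0138). The probe sets of Vpreb2 and Igll1 can share targets with near copies of these genes. Cd79b, the partner chain of Cd79a, read 12.31, 12.36 and 12.97 in RAG2ko, against 12.28, 12.14 and 12.20 in Pax5ko, with a difference of 0.34 ± 0.47 (SE, adjusted p = 0.635); it was named after its value was seen.

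The largest difference among genes of B cell receptor signalling was that of Blnk, the adaptor that links the receptor's kinases to downstream enzymes. Blnk read 13.70, 13.48 and 14.38 in RAG2ko, against 5.47, 5.21 and 4.85 in Pax5ko. It was bright on all RAG2ko arrays and below 6 on all Pax5ko arrays, a difference of 8.68 ± 0.48 (SE, adjusted p = 3.83e-05), or 7.85 with signals below 64 raised to 64. The rest of the pathway did not follow it in one direction: of 30 tested genes 6 rose and 9 fell, without RAG2ko replicate 3 there were 7 rises and 10 falls, and under median centring 1 rose and 7 fell. The kinase gene Blk fell, reading 6.46, 7.0 and 6.73 in RAG2ko, against 10.18, 10.20 and 10.12 in Pax5ko, a difference of -3.44 ± 0.24 (SE, adjusted p = 0.000131). Rasgrp3, an activator of Ras downstream of the receptor, read 3.55, 4.49 and 7.08 in RAG2ko, against 11.14, 11.68 and 11.19 in Pax5ko. It was lower on every RAG2ko array, although replicate 3 lay well above the other 2, with a difference of -6.29 ± 0.90 (SE, adjusted p = 0.00291), -7.32 without that array and -4.97 with signals below 64 raised. Fgr, another kinase of the Src family, fell by 1.59 ± 0.32 (SE, adjusted p = 0.0127).

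**Figure D2:**
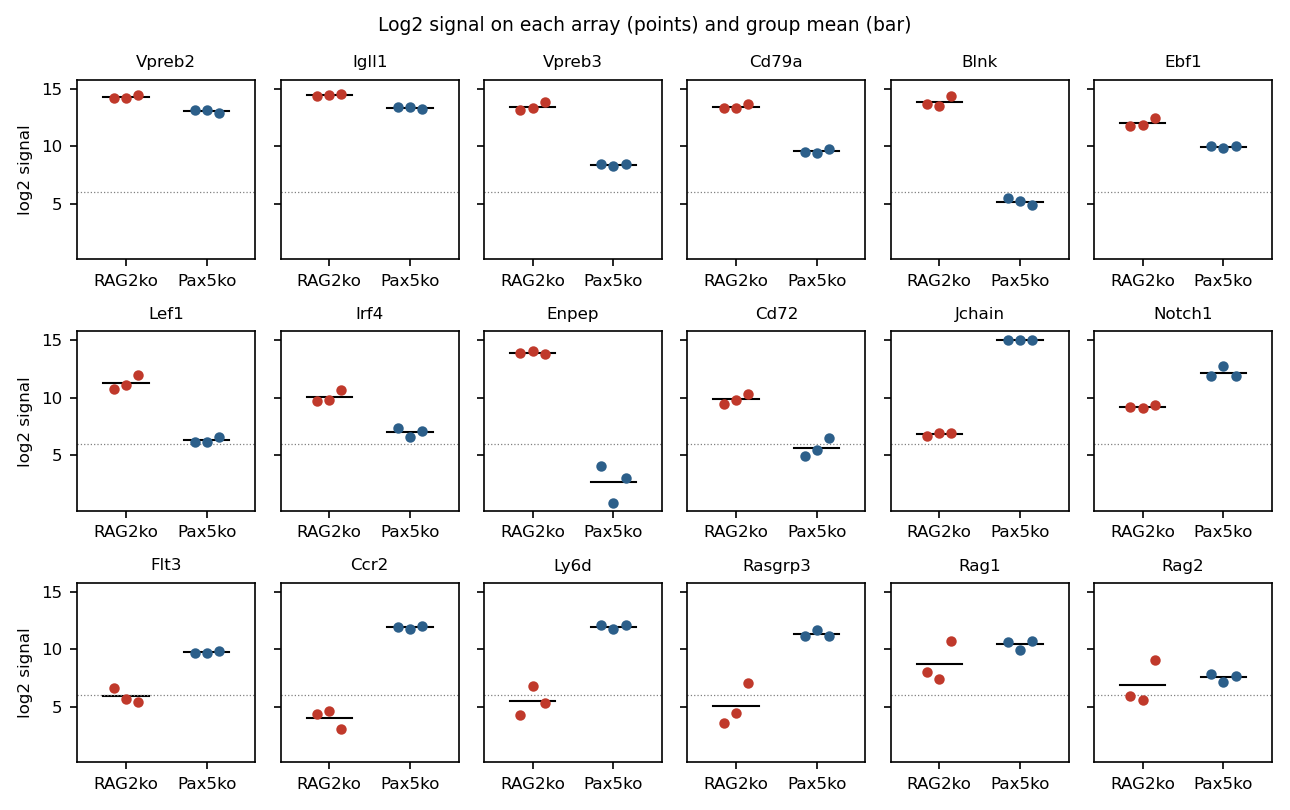
Log2 signal of 18 genes on each array, with the 3 RAG2ko arrays left of the 3 Pax5ko arrays and a dotted line at 6, below which signals are dim. Blnk, Vpreb3 and Cd79a sit higher in RAG2ko and Jchain, Flt3 and Notch1 lower, while Rag2 of RAG2ko replicate 3 is above all Pax5ko arrays.

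The 250 bases before the start sites of 4 genes that separated the lines are shown because 3 of them (Blnk, Vpreb3, Cd79a) were higher in RAG2ko and Jchain was lower. Matches to 2 motifs were looked for in them. The sequences are RefSeq's on mouse build GRCm38.p6, written 5′ to 3′ on the gene's strand, and lie at chr19:40994222-40994471 (minus strand) for Blnk, chr10:75948050-75948299 (plus strand) for Vpreb3, chr7:24897247-24897496 (plus strand) for Cd79a and chr5:88527898-88528147 (minus strand) for Jchain. Capitals mark matches, on either strand, to the octamer ATTTGCAT, the motif of POU family factors, and to the E-box CAGNTG, the motif of E2A and related factors, and no 2 matches overlapped.
Blnk: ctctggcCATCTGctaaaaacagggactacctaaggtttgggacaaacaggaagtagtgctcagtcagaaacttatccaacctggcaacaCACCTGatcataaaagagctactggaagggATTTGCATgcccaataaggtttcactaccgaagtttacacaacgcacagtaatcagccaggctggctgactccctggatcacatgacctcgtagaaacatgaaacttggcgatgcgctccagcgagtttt
Vpreb3: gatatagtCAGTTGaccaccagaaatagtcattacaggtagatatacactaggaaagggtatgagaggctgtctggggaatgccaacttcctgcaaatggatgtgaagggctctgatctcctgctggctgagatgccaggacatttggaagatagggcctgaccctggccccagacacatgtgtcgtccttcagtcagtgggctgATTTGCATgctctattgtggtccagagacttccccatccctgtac
Cd79a: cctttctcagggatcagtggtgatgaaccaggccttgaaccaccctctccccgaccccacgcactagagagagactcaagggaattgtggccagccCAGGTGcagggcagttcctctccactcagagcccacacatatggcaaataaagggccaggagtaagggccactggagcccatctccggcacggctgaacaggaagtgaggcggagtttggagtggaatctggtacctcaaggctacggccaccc
Jchain: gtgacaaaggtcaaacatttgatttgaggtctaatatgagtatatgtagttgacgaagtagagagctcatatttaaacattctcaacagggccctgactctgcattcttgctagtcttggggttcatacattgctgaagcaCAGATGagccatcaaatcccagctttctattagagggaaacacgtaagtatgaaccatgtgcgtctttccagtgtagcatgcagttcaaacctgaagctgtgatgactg
The octamer was found 130 bases before the start of Blnk and 45 bases before that of Vpreb3, and in neither of the other 2 windows. It occurred in 526 of 32851 such windows (1.6%) and the E-box in 14723 (44.8%). Over genes that Pax5 is known to activate, 1 of 19 windows held the octamer and 8 the E-box; among those known to be repressed, 0 of 13 held the octamer and 9 the E-box. The motifs were chosen after the sequences were seen, and a match is a description of letters only.

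Genes known from earlier work to be activated by Pax5 were mostly higher in RAG2ko: of 21 tested, 16 rose and 1 fell, with a median difference of 2.06, against 12.6% of named genes rising. Lef1, a partner of Wnt signalling needed by pro-B cells, read 10.81, 11.14 and 11.97 in RAG2ko, against 6.12, 6.16 and 6.58 in Pax5ko. Every RAG2ko array was above every Pax5ko array, by 5.02 ± 0.35 (SE, adjusted p = 0.000114). Cd72, a B cell surface co-receptor, read 9.43, 9.83 and 10.32 in RAG2ko, against 4.98, 5.44 and 6.54 in Pax5ko. These did not overlap either, and the difference was 4.21 ± 0.40 (SE, adjusted p = 0.000497). Cplx2, a regulator of vesicle release, read 11.85, 11.54 and 11.94 in RAG2ko, against 8.16, 7.67 and 7.63 in Pax5ko, again separate, with a difference of 3.96 ± 0.20 (SE, adjusted p = 2.64e-05). The 1 member that fell was Rasgrp3, described above. Without RAG2ko replicate 3, 15 rose and 1 fell.

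Genes known to be repressed by Pax5 showed the reverse: of 18 tested, 14 fell and 1 rose, with a median difference of -3.23, or -2.41 with signals below 64 raised to 64, against 10.7% of named genes falling. Jchain, the joining chain of secreted IgM and IgA, read 6.70, 6.91 and 6.95 in RAG2ko, against 15.06, 15.07 and 15.07 in Pax5ko. It was bright on all Pax5ko arrays and far lower on all RAG2ko arrays, a difference of -8.21 ± 0.26 (SE, adjusted p = 6.98e-06). Ly6a, the stem cell antigen Sca-1, read 7.48, 7.91 and 8.10 in RAG2ko, against 12.27, 12.10 and 12.42 in Pax5ko. The lines were separate, by -4.43 ± 0.22 (SE, adjusted p = 2.39e-05). Ccr9, a chemokine receptor of thymus and gut homing cells, read 5.73, 4.84 and 2.45 in RAG2ko, against 11.62, 11.72 and 11.38 in Pax5ko. It was dim in RAG2ko, and the difference was -7.23 ± 0.72 (SE, adjusted p = 0.0006), or -5.57 with signals below 64 raised. Fcer1g, the signalling chain of Fc receptors, had a difference of -6.43 ± 0.42 (SE, adjusted p = 7.86e-05), which was -3.44 after the same step.

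The member of that list counted as a rise, Emb, which codes for a cell adhesion protein, gave opposite results by probe set. Its brightest probe set, 1426414_a_at, read 12.36, 12.34 and 12.21 in RAG2ko, against 11.98, 11.87 and 11.85 in Pax5ko, a difference of 0.41 ± 0.11 (SE, adjusted p = 0.0356), and its call was lost in the fit of the 6 arrays (adjusted p = 0.0786) and in 7 of the 9 fits that left out 1 array, with an adjusted p of up to 0.108. The probe set 1415857_at read 2.13, 2.60 and 2.55 in RAG2ko, against 12.64, 12.43 and 12.62 in Pax5ko. Here RAG2ko was far below Pax5ko, by -10.14 ± 0.15 (SE, adjusted p = 2.18e-07), or -6.56 with signals below 64 raised. The difference of -10.14 on 1415857_at was the largest fall of any named gene, but after that step Jchain (-8.21) and Igf2 (-7.99) fell further. The third probe set, 1415856_at, also fell, by 5.99 ± 0.14. Which transcripts these probe sets match was not tested. Over the array, 41 of 4057 genes with more than 1 tested probe set had both rises and falls.

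Among transcription factors of the B lineage, 9 of 27 rose and 2 fell, and without RAG2ko replicate 3 the counts were 9 and 4. Ebf1, which specifies the B lineage, read 11.76, 11.83 and 12.44 in RAG2ko, against 10.06, 9.89 and 9.99 in Pax5ko. All RAG2ko arrays were higher, by 2.03 ± 0.21 (SE, adjusted p = 0.000647). Irf4, which acts at the transition from pre-B cells onward, read 9.68, 9.82 and 10.67 in RAG2ko, against 7.34, 6.63 and 7.10 in Pax5ko. The lines did not overlap, and the difference was 3.04 ± 0.31 (SE, adjusted p = 0.000691). Id3, an inhibitor of E proteins, read 10.55, 10.49 and 10.83 in RAG2ko, against 7.64, 7.44 and 8.24 in Pax5ko, and Id2, an inhibitor of the same proteins that is used by innate lymphoid cells, read 10.87, 10.78 and 10.79 in RAG2ko, against 8.33, 7.50 and 8.35 in Pax5ko. Both rose in RAG2ko, by 2.85 ± 0.30 (SE, adjusted p = 0.000691) for Id3 and 2.75 ± 0.29 (SE, adjusted p = 0.000708) for Id2. The falls were Mef2c, at -1.95 ± 0.23 (SE, adjusted p = 0.0013) with all 5 of its probe sets lower, and Runx1, at -1.30 ± 0.26 (SE, adjusted p = 0.0115), of whose 6 probe sets 2 fell and 1 rose.

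Surface proteins of B cells moved in both directions, with 10 of 21 tested genes rising and 5 falling, or 6 falling without RAG2ko replicate 3. Enpep, the aminopeptidase known as the pro-B and pre-B antigen BP-1, read 13.87, 14.06 and 13.80 in RAG2ko, against 4.05, 0.86 and 2.98 in Pax5ko. It was bright in RAG2ko and dim in Pax5ko, a difference of 11.28 ± 1.17 (SE, adjusted p = 0.000691), the largest rise of any named gene, or 7.91 with signals below 64 raised to 64. Bst1, an ectoenzyme of marrow stromal and B lineage cells, read 10.69, 10.46 and 11.74 in RAG2ko, against 5.90, 5.88 and 4.71 in Pax5ko, a separation of 5.46 ± 0.64 (SE, adjusted p = 0.00117). Ly6d, a marker of B cell specified lymphoid progenitors, ran the other way, reading 4.32, 6.83 and 5.33 in RAG2ko, against 12.08, 11.75 and 12.09 in Pax5ko. The lines were separate, by -6.48 ± 0.64 (SE, adjusted p = 0.000594). Il2ra, the alpha chain of the IL-2 receptor, read 5.32, 6.89 and 6.63 in RAG2ko, against 9.49, 9.44 and 9.41 in Pax5ko and was lower in RAG2ko by -3.17 ± 0.48 (SE, adjusted p = 0.00382). Cxcr5, a receptor that guides B cells to follicles, also fell, at -3.89 ± 0.38 (SE, adjusted p = 0.000589), and Cd93 fell at -1.20 ± 0.24 (SE, adjusted p = 0.0122).

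Of 16 genes of V(D)J recombination and end joining 5 rose and 1 fell, at a median of 0.15. Without RAG2ko replicate 3 there were 4 rises and 3 falls, and in the fit of the 6 arrays 2 rises and no fall. Rag1, the partner of Rag2, read 8.03, 7.41 and 10.75 in RAG2ko, against 10.66, 9.93 and 10.72 in Pax5ko. Its RAG2ko replicate 3 overlapped the Pax5ko arrays while the other 2 did not, and the difference was -1.71 ± 0.82 (SE, adjusted p = 0.176), or -2.72 (adjusted p = 0.00715) without that array. Dntt, the terminal transferase that adds bases at the joints, read 11.54, 11.42 and 13.17 in RAG2ko, against 10.68, 9.77 and 10.31 in Pax5ko. The lines were separate, but the difference of 1.79 ± 0.48 (SE, adjusted p = 0.0358) was not called in the fit of the 6 arrays (adjusted p = 0.0788) or in 5 of the 9 fits that left out 1 array, where the adjusted p reached 0.106 without Pax5ko replicate 2. Polm, a DNA polymerase of end joining, read 8.26, 7.51 and 7.57 in RAG2ko, against 5.77, 3.61 and 4.59 in Pax5ko, higher in RAG2ko by 3.12 ± 0.50 (SE, adjusted p = 0.00451), or 1.78 with signals below 64 raised.

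Stem and progenitor genes were lower more often than higher, with 9 of 24 falling and 2 rising, or 10 and 2 without RAG2ko replicate 3. Flt3, the receptor of the ligand that the Pax5ko medium held and the RAG2ko medium did not, read 6.63, 5.68 and 5.45 in RAG2ko, against 9.72, 9.69 and 9.88 in Pax5ko. All RAG2ko arrays were lower, by -3.84 ± 0.29 (SE, adjusted p = 0.000166). Kit, the stem cell factor receptor, read 5.65, 5.23 and 3.26 in RAG2ko, against 7.97, 7.93 and 7.97 in Pax5ko, separate by -3.25 ± 0.60 (SE, adjusted p = 0.00876), or -1.96 with signals below 64 raised to 64. Hhex, a homeobox factor of early progenitors, read 6.69, 6.36 and 6.04 in RAG2ko, against 11.51, 11.50 and 11.35 in Pax5ko. The lines were separate, by -5.09 ± 0.18 (SE, adjusted p = 6.98e-06). Cd48 and Egfl7 fell as well, at -6.0 ± 0.53 (SE, adjusted p = 0.00036) and -6.15 ± 0.43 (SE, adjusted p = 0.000117). The rises were Gfi1, a repressor used by lymphoid and myeloid progenitors, at 1.36 ± 0.12 (SE, adjusted p = 0.000312), and Slamf1, at 2.95 ± 0.26 (SE, adjusted p = 0.000379).

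Among receptors for cytokines and growth factors 14 of 29 fell and 2 rose, with a median of -0.83, and without RAG2ko replicate 3 there were 16 falls and no rise. The IL-21 receptor gene Il21r read 3.56, 3.58 and 4.15 in RAG2ko, against 7.80, 7.77 and 7.97 in Pax5ko. It was dim in RAG2ko and separate from Pax5ko, by -4.09 ± 0.18 (SE, adjusted p = 1.55e-05), or -1.85 with signals below 64 raised. Flt3, Kit and Il2ra, which were also counted in lists above, were the other large falls of the list, between -3.84 and -3.17. The 2 rises, Tgfbr2 (0.96) and Igf1r (0.94), were the calls lost without that array (adjusted p = 0.0751 and 0.0647), and they were lost in 8 and 6 of the 9 fits that left out 1 array. The IL-7 receptor gene Il7r read 12.09, 12.12 and 13.40 in RAG2ko, against 12.37, 12.21 and 12.23 in Pax5ko, with a difference of 0.27 ± 0.34 (SE, adjusted p = 0.606). RAG2ko replicates 1 and 2 were below all Pax5ko arrays and replicate 3 was above them, so the sign of this difference rests on replicate 3. Behind this receptor, 1 of 22 genes of IL-7, JAK and STAT signalling rose and 3 fell, or 1 and 2 without RAG2ko replicate 3. Jak1 rose by 0.73 ± 0.12, while Socs2, a STAT5 target that damps cytokine signals, read 13.03, 13.12 and 12.95 in RAG2ko, against 14.16, 14.21 and 14.24 in Pax5ko and fell by 1.17 ± 0.10 (SE, adjusted p = 0.000371). Stat5b fell by 0.96 ± 0.19 on 1 of its 2 probe sets.

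Chemokine receptors and adhesion genes gave 9 falls and no rise among 22 tested, and 8 falls and 1 rise without RAG2ko replicate 3. Ccr2, the monocyte chemokine receptor, read 4.34, 4.6 and 3.02 in RAG2ko, against 11.98, 11.76 and 11.99 in Pax5ko. Its 3 probe sets all fell, this one by 7.93 ± 0.47 (SE, adjusted p = 5.28e-05), or -5.91 as a difference with signals below 64 raised. Itgal, the alpha chain of the integrin LFA-1, read 3.0, 3.13 and 5.24 in RAG2ko, against 10.11, 10.08 and 10.0 in Pax5ko, with no RAG2ko array reaching a Pax5ko array, at -6.27 ± 0.58 (SE, adjusted p = 0.000452), or -4.06 with signals raised. Of the Notch pathway, 4 of 20 genes fell and 1 rose, or 4 and 2 without RAG2ko replicate 3. Notch1 read 9.19, 9.10 and 9.41 in RAG2ko, against 11.93, 12.73 and 11.90 in Pax5ko, lower on all RAG2ko arrays by -2.95 ± 0.23 (SE, adjusted p = 0.000228), and Notch2 fell by 1.78 ± 0.15. The Notch target Nrarp read 5.15, 6.74 and 6.46 in RAG2ko, against 9.43, 9.36 and 9.10 in Pax5ko, a difference of -3.18 ± 0.50 (SE, adjusted p = 0.00437), while the target Hes1, named after its value was seen, had a difference of 0.06 ± 0.17 (SE, adjusted p = 0.84).

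Of 24 myeloid genes 7 fell and 1 rose, at a median of -0.94, and without RAG2ko replicate 3, 9 fell and 1 rose. Cybb, a subunit of the phagocyte oxidase, read -0.01, 5.72 and 4.25 in RAG2ko, against 10.92, 11.19 and 11.01 in Pax5ko. It was bright in Pax5ko and dim in RAG2ko, a difference of -7.72 ± 1.25 (SE, adjusted p = 0.00493), or -5.04 with signals below 64 raised. Ncf1, another subunit, fell by 4.70 ± 0.35, and Tlr4, the receptor for endotoxin, was the rise, at 2.54 ± 0.32 (SE, adjusted p = 0.00172). The macrophage growth factor receptor Csf1r read 7.97, 5.94 and 6.89 in RAG2ko, against 7.67, 7.66 and 7.57 in Pax5ko, overlapping between the lines, with a difference of -0.70 ± 0.44 (SE, adjusted p = 0.295) that was called only without RAG2ko replicate 1 (adjusted p = 0.0335). The defining granulocyte markers Csf3r and Elane were below the filter.

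Of 17 T cell genes 3 rose and 3 fell (3 and 5 without RAG2ko replicate 3), and the CD3 chain genes Cd3d, Cd3e and Cd3g were below the filter. The rises included Lat, a membrane adaptor of T cell receptor signalling, which read 11.85, 11.93 and 12.30 in RAG2ko, against 8.92, 8.71 and 8.39 in Pax5ko, separate by 3.35 ± 0.18 (SE, adjusted p = 3.47e-05), and the kinase gene Zap70 at 2.15 ± 0.20 (SE, adjusted p = 0.000432). Cd28, a costimulatory receptor, read 7.34, 7.38 and 7.75 in RAG2ko, against 10.62, 10.36 and 10.47 in Pax5ko and was lower in RAG2ko by -2.99 ± 0.43 (SE, adjusted p = 0.00309). The T cell factors Gata3 and Tcf7 were dim or near the limit, with differences of -2.33 ± 0.81 (SE, adjusted p = 0.0784) and 1.06 ± 0.48 (SE, adjusted p = 0.161), the first of which was called without RAG2ko replicate 1 (adjusted p = 0.0151) and vanished with signals below 64 raised, since all 6 arrays read below that. Of 15 genes of NK and innate lymphoid cells 2 rose and 4 fell (1 and 4 without RAG2ko replicate 3), among the falls Nfil3, a factor these cells need, which read 0.98, 0.71 and 5.14 in RAG2ko, against 9.18, 8.90 and 9.05 in Pax5ko. RAG2ko replicate 3 stood above the other 2 there, yet all 3 were below Pax5ko, at -6.77 ± 1.05 (SE, adjusted p = 0.00414), or -3.05 with signals below 64 raised. Dendritic cell genes gave 4 falls and no rise of 10, with Runx2 at -4.70 ± 0.16 (SE, adjusted p = 6.98e-06), and genes of erythroid, platelet and mast cells gave 1 fall of 7, the transferrin receptor gene Tfrc at -1.32 ± 0.15 (SE, adjusted p = 0.00116).

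The D cyclins, which drive cells out of G1, moved in opposite directions. Ccnd2, cyclin D2, read 9.19, 9.22 and 9.73 in RAG2ko, against 12.96, 13.08 and 13.06 in Pax5ko. It was lower on all RAG2ko arrays and on all 6 of its probe sets, here by -3.65 ± 0.18 (SE, adjusted p = 2.41e-05). Ccnd3, cyclin D3, read 13.41, 13.51 and 13.72 in RAG2ko, against 11.40, 11.79 and 11.43 in Pax5ko, higher by 2.01 ± 0.20 (SE, adjusted p = 0.000663) on 1 of its 2 probe sets. Cdk6, a partner of both, read 3.97, 4.40 and 6.15 in RAG2ko, against 8.56, 8.25 and 8.25 in Pax5ko and fell, at -3.52 ± 0.50 (SE, adjusted p = 0.00292), or -2.31 with signals below 64 raised. In all, 4 of 16 genes of this list rose and 2 fell, Ccne2, Cdkn2d and Rb1 being the other rises at 1.40 ± 0.16, 1.63 ± 0.25 and 1.47 ± 0.22 (SE). Of 28 genes of the cell cycle and replication 6 rose and none fell, at a median of 0.26, with 4 rises without RAG2ko replicate 3, 3 in the fit of the 6 arrays, 10 without quantile normalization and 3 under median centring. The largest was that of Rrm2, a subunit of ribonucleotide reductase, at 1.39 ± 0.18 (SE, adjusted p = 0.00179).

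Genes of amino acid metabolism held large differences in both directions. Bcat1, which starts the breakdown of branched-chain amino acids, read 11.95, 12.07 and 11.75 in RAG2ko, against 3.14, 4.59 and 5.23 in Pax5ko. It was bright in RAG2ko and dim in Pax5ko, a difference of 7.61 ± 0.57 (SE, adjusted p = 0.000171), or 5.92 with signals below 64 raised to 64. Cth, the enzyme that makes cysteine from cystathionine, read 10.90, 10.81 and 11.05 in RAG2ko, against 6.04, 5.27 and 5.80 in Pax5ko, separate by 5.22 ± 0.25 (SE, adjusted p = 2.39e-05). The glutamine transporter gene Slc1a5 was higher by 2.24 ± 0.13 (SE, adjusted p = 3.95e-05). Gcat, an enzyme of threonine breakdown, ran the other way, reading 2.34, 1.18 and 2.31 in RAG2ko, against 10.54, 10.23 and 10.62 in Pax5ko. All RAG2ko arrays were dim, and the difference was -8.52 ± 0.31 (SE, adjusted p = 7.37e-06), or -4.46 with signals raised. Asns, which makes asparagine, also fell, reading 7.83, 8.24 and 7.81 in RAG2ko, against 11.29, 10.79 and 11.17 in Pax5ko, by 3.13 ± 0.29 (SE, adjusted p = 0.000447). Over this list 8 of 23 rose and 2 fell.

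Of 24 glycolysis genes 9 rose and 3 fell, at a median of 0.49, and without RAG2ko replicate 3, 8 rose and 5 fell. Pfkp, the platelet form of phosphofructokinase, read 12.36, 12.17 and 12.69 in RAG2ko, against 8.03, 7.42 and 8.11 in Pax5ko. The gap between the lines was 4.55 ± 0.22 (SE, adjusted p = 2.39e-05), while the other rises were between 0.43 and 1.31. Aldoa, the aldolase of muscle and many other cells, rose by 1.10 ± 0.16 (SE) on all 3 of its probe sets. The glucose transporter gene Slc2a3 read 1.76, 3.09 and 9.26 in RAG2ko, against 10.79, 10.82 and 10.99 in Pax5ko. Its RAG2ko arrays spread widely, with replicate 3 near Pax5ko, so the difference of -6.16 ± 1.68 (SE, adjusted p = 0.0378) was -8.44 (adjusted p = 8.73e-05) without that array, and -3.78 with signals below 64 raised. It was not called in the fit of the 6 arrays (adjusted p = 0.0898) or without any one of the other 8 arrays, at up to 0.11.

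Stress and signalling response genes gave 5 rises and 2 falls of 15 for stress genes and 5 rises and 1 fall of 23 for immediate early and MAP kinase feedback genes. Without RAG2ko replicate 3 the falls were 4 and 3. Chac1, a glutathione-degrading enzyme induced by the factor ATF4, read 10.38, 10.20 and 10.30 in RAG2ko, against 7.81, 7.15 and 7.47 in Pax5ko, separate by 2.81 ± 0.25 (SE, adjusted p = 0.000374). Trib3 rose at 2.13 ± 0.35 (SE, adjusted p = 0.00553), and Ddit4, an inhibitor of mTORC1 signalling, at 2.54 ± 0.25 (SE, adjusted p = 0.000587). Dusp6, a phosphatase of the MAP kinase ERK, read 10.49, 10.51 and 10.45 in RAG2ko, against 7.67, 7.42 and 7.73 in Pax5ko, higher in RAG2ko by 2.88 ± 0.44 (SE, adjusted p = 0.0039). Nr4a1, an immediate early nuclear receptor gene, read 5.50, 5.95 and 6.38 in RAG2ko, against 9.61, 8.95 and 9.24 in Pax5ko, lower in RAG2ko by -3.33 ± 0.34 (SE, adjusted p = 0.000681). Atf3 and Jun rose, at 4.10 ± 0.52 (SE, adjusted p = 0.00174) and 2.56 ± 0.42 (SE, adjusted p = 0.00527), and with signals raised the difference of Atf3 was 3.03.

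Of 21 survival and death genes 1 rose and 1 fell (2 and 1 without RAG2ko replicate 3), the fall being Pmaip1, the BH3-only protein Noxa, which read 3.56, 5.03 and 1.80 in RAG2ko, against 8.86, 8.68 and 8.90 in Pax5ko. It was separate between the lines, at -5.35 ± 0.68 (SE, adjusted p = 0.0018), or -2.81 with signals below 64 raised. Of 22 interferon response genes 1 rose and 1 fell, and without RAG2ko replicate 3 none rose and 3 fell, the fall with all arrays being that of Tap2, a peptide transporter subunit, at -1.34 ± 0.14 (SE, adjusted p = 0.000691). Of 15 plasma cell and secretory genes 3 rose and 3 fell, with 3 and 4 without RAG2ko replicate 3 and 1 and 3 under median centring; besides Jchain these included Xbp1, a factor of secretory cells, at -1.20 ± 0.16 (SE, adjusted p = 0.00245), and Ell2, an elongation factor, at 3.0 ± 0.57 (SE, adjusted p = 0.00944). Of 14 genes of MHC class II and costimulation 1 rose and 3 fell, led by Ctss, the protease cathepsin S, at -2.49 ± 0.22 (SE, adjusted p = 0.000335).

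**Figure D3:**
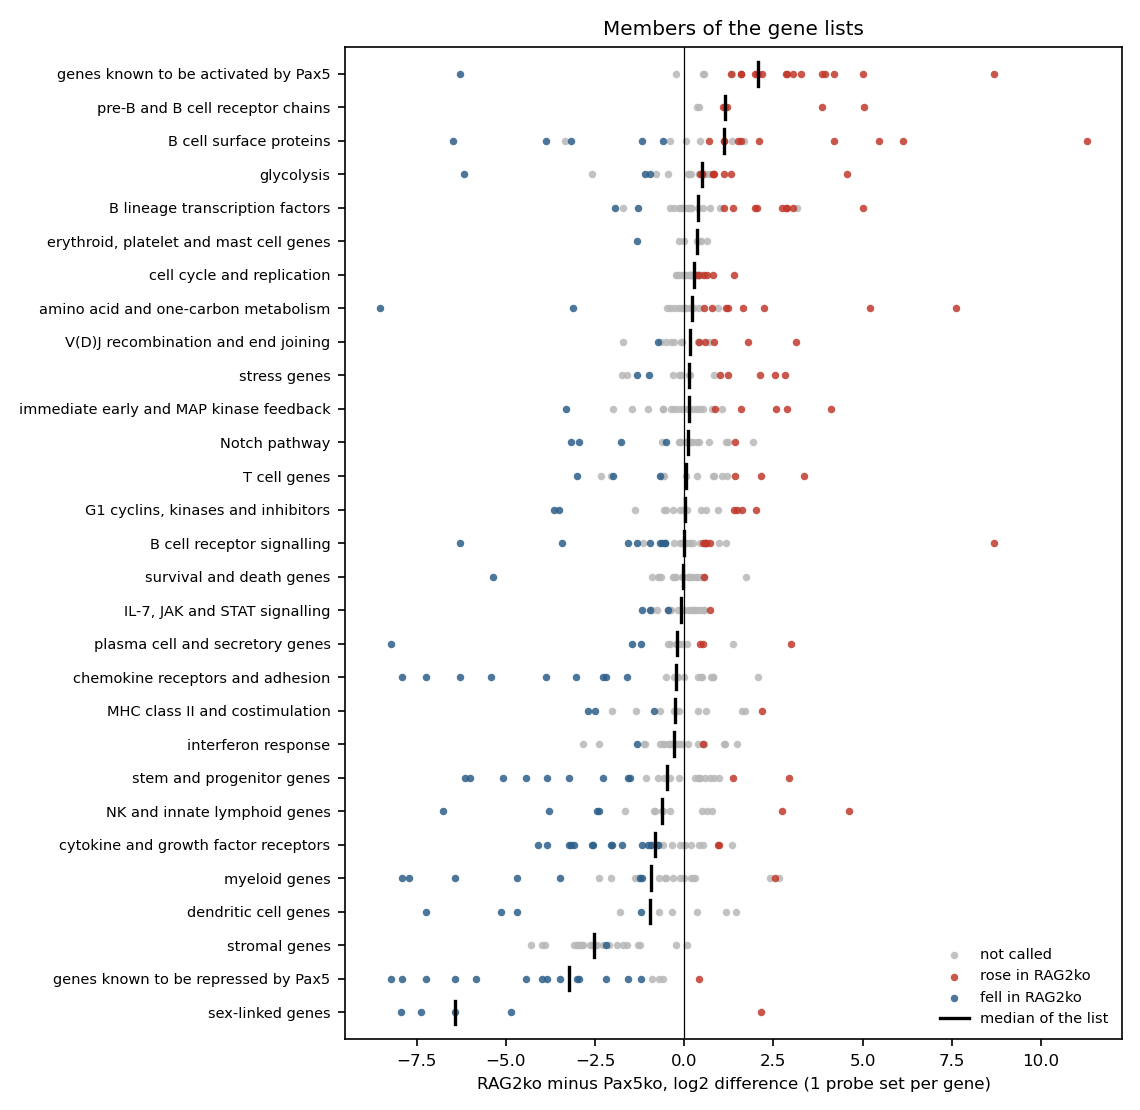
Difference (RAG2ko minus Pax5ko, log2) of each tested gene in 29 lists, 1 row a list, with the median of each list marked. The Pax5-activated list has its median at 2.06 and the Pax5-repressed list at -3.23, while all 9287 named genes have theirs at 0.06.

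Outside the lists, the largest differences fell on genes of mixed function. Tubb3, a beta tubulin of neurons, read 11.31, 11.32 and 10.47 in RAG2ko, against 4.89, 4.06 and 4.63 in Pax5ko. It was bright in RAG2ko, and the difference was 6.51 ± 0.36 (SE, adjusted p = 3.85e-05), or 5.04 with signals below 64 raised. Ifi209, a member of the interferon-induced p200 family, read 10.13, 9.94 and 11.16 in RAG2ko, against 2.08, 2.20 and 0.0 in Pax5ko, a difference of 8.98 ± 0.94 (SE, adjusted p = 0.000703) that became 4.41 with signals below 64 raised. The other rises of the 10 largest, besides those already given, were Armcx4 (7.18), Mc1r (7.01), Prxl2a (6.75), Cpm (6.58) and H2-D1 (7.84 on the probe set 1427651_x_at). The probe sets named H2-D1 did not move together. Probe set 1452544_x_at also rose (7.43), 1425336_x_at fell (-0.98) and the others were not called, such as 1451784_x_at (-0.28). With signals raised, the differences were 4.23 for Armcx4, 4.21 for Mc1r, 4.08 for Prxl2a and 1.76 for Cpm. Among falls, Igf2, an imprinted growth factor gene, read 7.06, 5.86 and 5.71 in RAG2ko, against 14.16, 14.61 and 14.26 in Pax5ko. All Pax5ko arrays were bright and the difference was -8.13 ± 0.65 (SE, adjusted p = 0.000234). Tnni2, a troponin of fast muscle, read 3.17, 3.28 and 2.60 in RAG2ko, against 11.67, 11.67 and 11.60 in Pax5ko, at -8.63 ± 0.19 (SE, adjusted p = 2.08e-06), or -5.65 with signals raised. The others were Tmed6 (-9.23), Xlr4b (-8.68) and Nt5dc2 (-8.39), all dim in RAG2ko, at -5.55, -5.35 and -4.98 in the same order with signals raised.

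Of the tested probe sets 11504 had no gene symbol, and 1072 of these rose (9.32%) and 1063 fell (9.24%), against 12.2% and 10.1% of the 16265 with a symbol. RIKEN clones without a symbol gave 277 rises and 276 falls among 3117, and transcribed sequences 131 and 158 among 2153. Probe sets described as T cell receptor loci were mostly lower in RAG2ko: 11 of 15 tested fell and 1 rose, with a median of -5.05, and 10 fell without RAG2ko replicate 3. The group has 30 probe sets, and the rest did not pass the filter. Some of the falls, such as 1427656_at and 1452205_x_at, were above 6 on the Pax5ko arrays only. These passed the filter through the line where they are high, so the count and the median in part reflect the filter. Of the 11, 7 carry the same description, the beta chain variable segment 13, so they are not separate genes, and 3 describe the alpha chain. The probe set 1425226_x_at, of that beta segment, read 4.07, 4.04 and 4.03 in RAG2ko, against 11.97, 11.87 and 11.88 in Pax5ko. It was bright on every Pax5ko array and dim on every RAG2ko array, at -7.86 ± 0.51 (SE, adjusted p = 7.72e-05), or -5.91 with signals below 64 raised. The probe set 1427655_a_at, described as a rearranged delta chain, read 2.34, 2.51 and 3.58 in RAG2ko, against 12.06, 12.04 and 12.06 in Pax5ko, a difference of -9.24 ± 0.32 (SE, adjusted p = 6.98e-06), or -6.05 with signals raised to 64. The 1 rise, 1427608_a_at of the gamma chain, was dim on all 6 arrays and was tested only because the EBFko arrays read 12.77, 12.98 and 13.29; with signals raised it has no difference.

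Probe sets described as MHC class I gave 9 rises and 2 falls of 25, and 8 and 3 without RAG2ko replicate 3. Probe set 1425614_x_at, described as the D region locus 1, read 12.85, 12.86 and 13.23 in RAG2ko, against 4.43, 4.15 and 6.07 in Pax5ko. The lines were far apart, by 8.10 ± 0.82 (SE, adjusted p = 0.000643), or 6.96 with signals below 64 raised. Yet 1451784_x_at, with the same description, read 13.57, 13.62 and 14.03 in RAG2ko, against 13.98, 13.98 and 14.11 in Pax5ko, bright in both lines, with a difference of -0.28 ± 0.22 (SE, adjusted p = 0.39). Probe set 1418536_at, described as the Q region locus 7, read 11.78, 11.47 and 11.91 in RAG2ko, against 5.16, 5.09 and 6.62 in Pax5ko, a difference of 6.10 ± 0.63 (SE, adjusted p = 0.00068). Probe sets 1451784_x_at and 1418536_at were named after their values were seen. Class I genes are near copies that differ between mouse strains, and symbols and descriptions conflict for some of these probe sets, so which locus each reads is uncertain. Whether the lines are of the same strain was not tested. Immunoglobulin probe sets without a symbol gave 2 rises and no fall of 11 (3 rises without RAG2ko replicate 3), at a median of 0.89. These description groups were chosen after their values were seen.

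**Figure D4:**
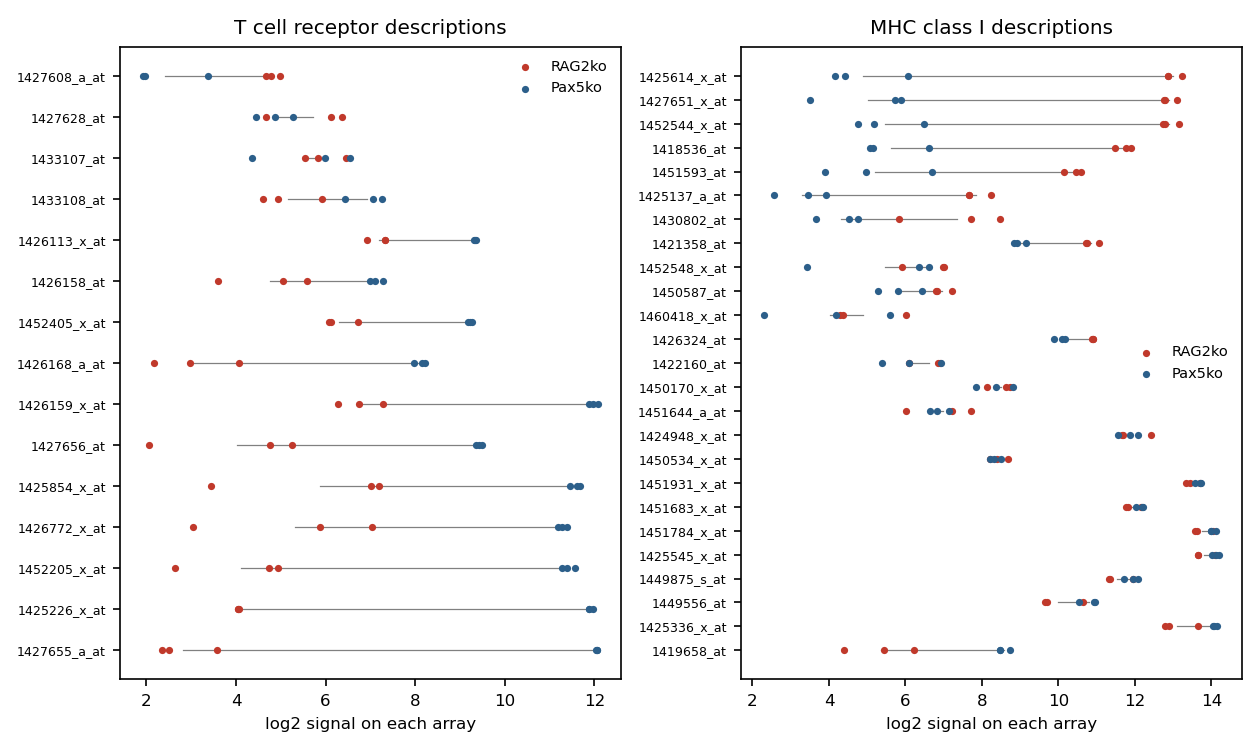
Log2 signal on the 3 RAG2ko arrays (red) and the 3 Pax5ko arrays (blue) of the 15 tested probe sets described as T cell receptor loci and the 25 described as MHC class I, 1 row a probe set, with a grey line joining the 2 means. In the T cell receptor panel 11 rows have the RAG2ko points clearly lower, and in the MHC class I panel 9 have them higher, while others have both lines near 12 to 14.

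Other probe sets named by description only, chosen by size, were 1455869_at, which read 6.71, 3.44 and 5.67 in RAG2ko, against 14.56, 14.87 and 14.54 in Pax5ko, and 1452257_at, described as the heart mitochondrial form of 3-hydroxybutyrate dehydrogenase, which read 2.47, 3.75 and 2.69 in RAG2ko, against 11.55, 11.28 and 11.43 in Pax5ko. Both were lower on all RAG2ko arrays, by -9.38 ± 1.11 (SE, adjusted p = 0.00121) and -8.45 ± 0.32 (SE, adjusted p = 8.97e-06), or -8.42 and -5.42 with signals below 64 raised. On the rising side, 1426936_at, described only by a locus number, read 12.33, 12.36 and 12.42 in RAG2ko, against 5.72, 5.54 and 2.83 in Pax5ko, separate by 7.67 ± 0.68 (SE, adjusted p = 0.000374), or 6.37 with signals raised, and 1439036_a_at read 13.09, 13.11 and 13.60 in RAG2ko, against 6.14, 5.65 and 6.65 in Pax5ko, separate by 7.12 ± 0.32 (SE, adjusted p = 1.79e-05).

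Without RAG2ko replicate 3, 3231 probe sets rose and 3467 fell; 2490 of the 3059 rises and 2394 of the 2705 falls were called again, and none was called in the other direction. Genes of the Y chromosome were also higher on this array than on the other RAG2ko arrays. Eif2s3y, a gene of the Y chromosome, read 1.71, 1.22 and 6.20 in RAG2ko, against 11.06, 10.96 and 10.95 in Pax5ko. RAG2ko replicate 3 was above the other 2 and below all Pax5ko arrays, and the difference was -7.94 ± 1.18 (SE, adjusted p = 0.00341), -9.52 without it, or -4.92 with signals below 64 raised. Ddx3y, on the same chromosome, read 1.24, 4.42 and 7.27 in RAG2ko, against 11.67, 11.67 and 11.72 in Pax5ko, a difference of -7.37 ± 1.37 (SE, adjusted p = 0.00889), or -5.26 with signals raised. Xist, which is made from the inactive X chromosome of female cells, read 7.48, 8.24 and 7.80 in RAG2ko, against 5.92, 5.58 and 5.56 in Pax5ko, higher in RAG2ko by 2.15 ± 0.21 (SE, adjusted p = 0.000587), with replicate 3 between the other 2. The lines therefore differ in these genes as well as in genotype and medium, and the part of this in other results was not tested. For the Pax5-activated and Pax5-repressed lists, the median was 1.99 and -3.37 without this array, against 2.06 and -3.23 with it.

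**Figure D5:**
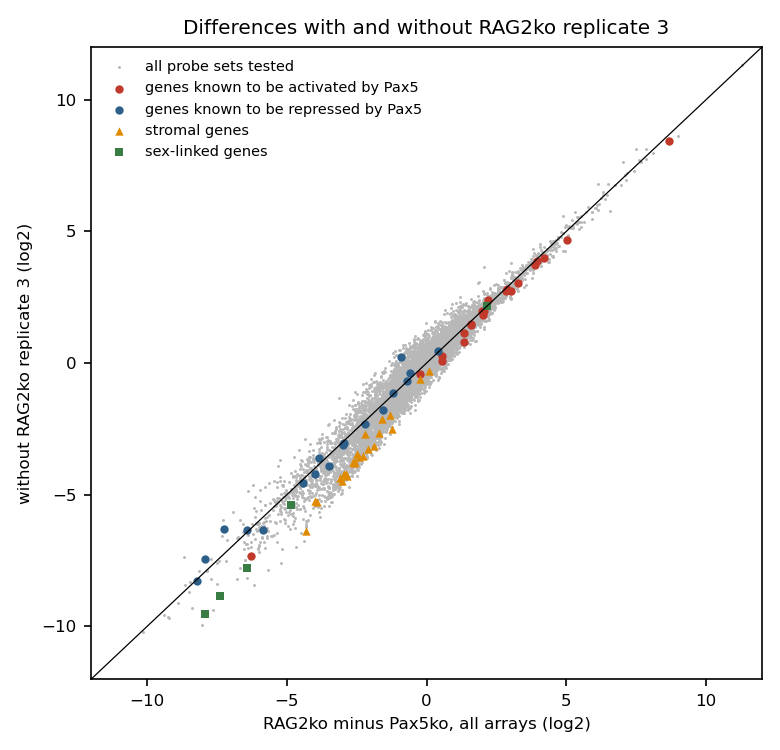
Difference (RAG2ko minus Pax5ko, log2) without RAG2ko replicate 3 against the difference with all arrays, 1 point a probe set, with the Pax5 lists, the stromal genes and the sex-linked genes coloured. Most genes of the Pax5 lists lie near the diagonal, while most stromal genes lie below it, their median being -3.66 without this array and -2.52 with it.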

How the data were processed

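RNA of 3 samples each of RAG2ko, Pax5ko and EBFko cells was measured on Affymetrix expression arrays. The submitters' processing notes name GCRMA, version not given. The intensity values the authors deposited are linear, with a 2% trimmed mean near 500 on each array (500.003 to 500.004), a scaling that GCRMA does not give, so the steps behind them are uncertain. The median signal per array was 73.4 to 97.6, and 40.9 to 47.2% of probe sets were below 64; the number of arrays limits the precision. The authors also deposited tables of 1 linear ratio per probe set and knockout, whose reference is not stated and which hold no replicates; these gave probe set descriptions and an alternative without a test.

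The planned test allowed for values already on a log scale; these were not, and log2 was taken. Signals were quantile normalized over the 9 arrays. Of 45037 probe sets, besides 64 controls, those above log2 6 on at least 3 of 9 arrays were kept. limma 3.58.1 (lmFit, eBayes, R 4.3.3) was fitted to all 9 arrays, which share 1 estimate of the spread (6 residual degrees of freedom); the two-sided test of RAG2ko minus Pax5ko was adjusted by Benjamini-Hochberg over 27769 probe sets. In 10 simulated data sets of 27769 probe sets, 1000 differences of 1 (log2) and 1000 of 2 were set over all 10, with the same spread in each group. Of these, 27.7% of differences of 1 and 64.7% of differences of 2 were called, and 5.23% of all calls were false. Far fewer probe sets were changed in each data set than were called in the real comparison, so these shares need not hold for it.

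Symbols came from RefSeq accessions (13125 probe sets), descriptions shared with those (4945), clone names (5142) or matching by hand (245), and 21580 probe sets have none. The 29 lists hold 589 genes, of which 513 were tested. Genes named are, per list, up to 4 rises and 4 falls of largest difference, the 10 largest rises and falls with a symbol and 5 each without one whose arrays do not overlap, and 17 genes of B cell development whatever their result; exceptions are marked. The comparison and its lists were chosen with earlier results of these data known. Some genes that this rule would name are not reported here.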

Additional observations from a re-analysis of the deposited data

How the results depend on the processing

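Each count depended on the choices made, and the direction of the named probe sets that were called did so once. The 3059 rises became 1770 with median centring, 1806 without a filter, 1950 without probe sets that can match several transcripts, 1351 with 1 probe set per named gene, 1503 at a 2-fold minimum and 1676 at 2-fold or more in the deposited ratios, which have no test. The 2705 falls became 1124 with 1 probe set per named gene and 4428 with array weights. When each array was left out in turn, the rises ranged from 1890 (without RAG2ko replicate 1) to 3231 and the falls from 1799 (without Pax5ko replicate 1) to 3467, both highest without RAG2ko replicate 3. RAG2ko replicate 2 (1941) and Pax5ko replicate 3 (2037) also moved the rises by over 1.5 times, as Pax5ko replicate 3 (1803) moved the falls. The fit of the 6 arrays gave 2317 rises and 2119 falls. Same-numbered replicates of RAG2ko and Pax5ko deviated together weakly over all tested probe sets (r of -0.05, 0.10 and 0.20). These values cannot decide whether the numbers pair the samples. The mean log2 signal of the stromal genes was lowest in replicate 2 and highest in replicate 3 in Pax5ko (9.76, 8.51 and 10.48) and EBFko (10.07, 8.54 and 10.24). In RAG2ko it was lowest in replicate 1 (5.72, 6.46 and 9.42). With a replicate block 2661 rose and 2751 fell. Of 165 named probe sets under 23 settings, 3429 cases were counted as unchanged, 280 lost the call, 13 gained it and 1 reversed. A change of direction was counted as a reversal only where there was a call. The unchanged cases therefore include changes of direction without a call, as for Il7r without RAG2ko replicate 3. The reversal was that of Themis, which had -2.0 on the log2 scale and 0.0876 in the deposited ratios, and the cause was not tested. List medians stayed within the spread of replicates in 543 cases and moved in 94. Differences that reach signals below 64 are limited in size by dim signal.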
